A study of Mus musculus with 16 samples.

Results

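Expression of 10 genes of MHC class I antigen presentation was followed in the single cells of 2 mouse models of BRCA1-deficient triple-negative breast cancer (TNBC). The genes were B2m, H2-K1, H2-D1, H2-T23, Tap1, Tap2, Tapbp, Psmb8, Psmb9 and Nlrc5. They were listed by name as a pathway, with earlier results of these data known, and the rule itself uses no measured value. All 10 were among the 19822 genes counted in the 8 HiSeq libraries. The WB1P model has the genotype WapCre;Brca1F/F;Trp53F/F. The whey acidic protein promoter drives Cre in mammary epithelium, where the floxed alleles are deleted. The WB1P-Myc model has the same alleles and in addition a Myc transgene (labelled WapCre;Brca1F/F;Trp53F/F;Myc), which the study describes as a Cre-activated construct at Col1a1 (Col1a1invCAG-Myc-IRES-Luc) that also carries luciferase. The genotypes therefore share the loss of Brca1 and Trp53 and differ in the Myc allele. All mice were on an FVB/n background and untreated, and their age was not given in the sources used here. Live single cells of end-stage tumours were sorted as dapi-negative singlets and run through Drop-seq, in which unique molecular identifiers (UMIs) mark each captured 3' transcript end.

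The class I pathway shows peptides from inside the cell to CD8 T cells and natural killer (NK) cells. Peptides are cut by the proteasome, pumped into the endoplasmic reticulum by the TAP1/TAP2 transporter and loaded with the help of tapasin onto a heavy chain paired with beta-2-microglobulin. Interferon signalling and the transactivator NLRC5 are known to raise transcription of these genes together. Class I molecules are present on nearly all nucleated cells, and their reduction on tumour cells is a known route by which tumours become less visible to CD8 T cells.

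B2m is on chromosome 2 (122147687-122153082, mm10), and Nlrc5 is on chromosome 8 (94434335-94527272). The other 8 members are in the MHC region of chromosome 17, from Tapbp (33919478-33929290) and H2-K1 (33996012-34000619) to H2-D1 (35263094-35267497) and H2-T23 (36029977-36032701). Psmb9 (34182030-34187330) and Tap1 (34187556-34197225) are read in opposite directions from neighbouring starts. RefSeq promoter windows of GRCm38.p6, from 250 bases before to 50 bases after each start, were matched for 8 of the 10 members, all but Tap2 and Nlrc5. Promoters of class I genes are known to hold an element bound by RFX, CREB and NF-Y factors, through which NLRC5 acts, and an interferon-stimulated response element. The windows of B2m (chr2:122147437-122147736, plus strand), H2-K1 (chr17:34000298-34000597, minus strand), H2-D1 (chr17:35262844-35263143, plus strand) and Tap1 (chr17:34187306-34187605, plus strand) are printed to show the light chain, the classical heavy chains and the start shared by a transporter and an immunoproteasome subunit. They are written 5' to 3' along the gene, and the capitals mark matches, on either strand, to the E-box CACGTG, the NF-Y core CCAAT, the cyclic AMP core TGACG, the STAT core TTCNNNGAA, and a GAAA followed after any 2 bases by a further GAAA.
B2m: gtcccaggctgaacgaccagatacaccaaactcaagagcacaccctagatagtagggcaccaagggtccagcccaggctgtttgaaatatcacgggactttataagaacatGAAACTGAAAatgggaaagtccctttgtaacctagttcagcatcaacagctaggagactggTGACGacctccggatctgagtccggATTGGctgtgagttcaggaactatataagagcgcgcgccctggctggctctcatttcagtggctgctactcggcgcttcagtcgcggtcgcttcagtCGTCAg
H2-K1: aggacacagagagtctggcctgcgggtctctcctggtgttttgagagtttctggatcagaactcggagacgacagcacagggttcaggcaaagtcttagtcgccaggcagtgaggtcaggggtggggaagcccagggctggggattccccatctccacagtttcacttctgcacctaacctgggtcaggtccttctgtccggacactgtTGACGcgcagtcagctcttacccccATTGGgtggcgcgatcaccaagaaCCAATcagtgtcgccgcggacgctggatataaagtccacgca
H2-D1: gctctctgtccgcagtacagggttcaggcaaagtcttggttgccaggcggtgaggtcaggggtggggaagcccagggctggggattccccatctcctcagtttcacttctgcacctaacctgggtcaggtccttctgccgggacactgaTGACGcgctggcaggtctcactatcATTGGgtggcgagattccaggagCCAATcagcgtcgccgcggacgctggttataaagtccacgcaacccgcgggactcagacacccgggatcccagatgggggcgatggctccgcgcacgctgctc
Tap1: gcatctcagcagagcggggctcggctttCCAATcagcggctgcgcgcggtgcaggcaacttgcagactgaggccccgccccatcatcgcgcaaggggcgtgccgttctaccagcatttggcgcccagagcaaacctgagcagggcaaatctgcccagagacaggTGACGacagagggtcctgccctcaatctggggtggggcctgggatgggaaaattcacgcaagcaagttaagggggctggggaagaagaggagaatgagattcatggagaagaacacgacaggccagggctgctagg

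CCAAT, the core of the NF-Y site, was present in the windows of 7 of the 8 members against 37.4% of 32851 mouse promoter windows, and TGACG, a core of the cyclic AMP response element, in 5 against 20.8%. The GAAA repeat, a core of the interferon-stimulated response element, was matched in B2m and H2-T23 and in 3.44% of all windows. Other forms of that element were not searched for, so a window without a match may still hold one. TTCNNNGAA, the STAT core, was matched in Psmb8 alone and in 8.3% of all windows. CACGTG, the E-box that MYC and MAX can bind, was matched in none of the 8 members and in 7.15% of all windows. In B2m, H2-K1 and H2-D1, TGACG was followed by CCAAT read on the other strand with 25 bases from start to start. That spacing, noticed after the matches were seen, was present in 31 of all windows (0.0944%), among them those of H2-M3, a further class I heavy chain. The windows of Tap1 and Psmb9 share 275 bases and are nearly the same sequence read from each side. Their CCAAT and TGACG matches are the same bases, which enter the counts above once for each gene. The letters are a description of the reference, and binding was not measured.

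Each model gave 1 cell suspension, from which 4 droplet fractions were sequenced, so differences between models have no biological replicate check and no test was made. The study names 2 mice per model without assigning a fraction to a mouse. The HiSeq libraries held between 256985 and 1918672 UMIs in WB1P and between 3814562 and 4960334 in WB1P-Myc. WB1P fraction 1 stood apart with 65 of 1307 cells, and 1 retained barcode sequence occurred in more than 1 library. The 4798 cells were grouped without the class I genes and their loading factors, so that the classes did not depend on the members' values. The class II, interferon response, regulator and marker genes stayed in the clustering. Tumour cells were taken as the cells named epithelial-like or Schwann-like. No marker used here separates malignant from normal epithelium, and whether the Schwann-like cells are malignant was not tested. In WB1P the cells so taken were 657 epithelial-like cells, nearly all from 1 cluster. In WB1P-Myc they were 817 epithelial-like cells, mainly from a different cluster, and 911 Schwann-like cells, a class with no WB1P cell. That epithelial-like cluster was named from 5 leading markers (Krt19, Krt14, Krt17, Cdh1 and Cldn7), none of them among its 10 top genes, which began with Bex1, Gpx2 and Crabp1. At a finer clustering 321 of the 817 cells stayed in an epithelial-like cluster of WB1P-Myc, while 259 and 206 fell into clusters without a name, so the name is uncertain for most of this class. Markers that took part in naming the classes are given as a description. Epcam, an epithelial adhesion molecule, was counted at 2396 counts per 1000000 UMIs (CPM) in WB1P epithelial-like cells, at 582.7 CPM in those of WB1P-Myc and at 31.3 CPM in Schwann-like cells. Mbp, a myelin protein, was counted at 1033 CPM in Schwann-like cells and at 2.98 CPM in WB1P tumour cells. The Myc gene was counted at 67.9 CPM in WB1P tumour cells (33.6 to 94.1 CPM over fractions) and at 161.8 CPM in WB1P-Myc tumour cells (136 to 181 CPM). The transgene transcript ends in other sequence, so whether its tags are among these counts was not tested, and 3' tags do not read the floxed exons of Brca1 and Trp53. Tags were mapped to the mm10 reference, whose MHC haplotype differs from that of FVB/n mice, so the counts of H2-K1, H2-D1 and H2-T23 are uncertain in a way that both models share. Within the last 500 bases of the reference transcripts, H2-T23 was the sole member with a 117-base stretch found exactly in another gene (2.86% of stretches).

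Class I genes were counted at lower levels in WB1P-Myc than in WB1P tumour cells. Of the 9 members with a ratio, all 9 lay below 0 on the log2 scale, with a median log2 ratio of -1.16, against a median of 0.08 over the 10696 genes with at least 50 UMIs in both pools together. At least 2-fold lower were 5 of the 10 members, namely B2m, H2-D1, H2-T23, Tap1 and Tapbp, and 12.9% of all tested genes were as low. All but Tap1 of these also had fractions that did not overlap between the models, which 9.28% of all tested genes had, so 4 of 10 met both. None of the members was at least 2-fold higher, which 17.6% of all tested genes were. The WB1P-Myc pool joins epithelial-like and Schwann-like cells, which are given apart further on. The levels are pooled over the cells of a class, as CPM, with exact Poisson 95% intervals that cover counting error only. Fewer cells carrying a transcript and less transcript per cell cannot be told apart in a pooled level. The models were separate suspensions, so tumour genotype, suspension and library depth cannot be told apart.

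The light chain differed most among the members. B2m encodes beta-2-microglobulin, which every class I heavy chain needs to reach the cell surface. In WB1P tumour cells it was counted at 448, 1173, 1020.0 and 867 CPM in fractions 1 to 4. In WB1P-Myc tumour cells it was counted at 280.1, 293, 279 and 303 CPM. The fractions did not overlap, and the small WB1P fraction 1 was nearest to those of WB1P-Myc. The pooled levels were 999 CPM (955.5 to 1043) and 288 CPM, a log2 ratio of -1.79 (-1.88 to -1.71) or 3.47-fold lower. Across all tested genes, 4.92% had a lower ratio than B2m.

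The classical heavy chains H2-K1 and H2-D1, which bind peptide for CD8 T cells, were also lower, H2-D1 by more than H2-K1. H2-D1 was counted at 571, 479.5, 398 and 336 CPM in the WB1P fractions and at 148, 189.8, 196 and 169.6 CPM in the WB1P-Myc fractions. The pooled log2 ratio was -1.25 (-1.37 to -1.13), 2.38-fold lower, with 9.27% of all genes lower still. H2-K1 was counted at 157, 265, 199 and 165 CPM in WB1P and at 113, 128, 139 and 139 CPM in WB1P-Myc. Its fractions were separate by a small margin. The pooled log2 ratio was -0.71 (-0.87 to -0.54), 1.63-fold lower, and 19.4% of all genes lay lower. These values join both tumour classes of WB1P-Myc. In its epithelial-like cells alone H2-K1 was at 174 CPM, within the range of the WB1P fractions. H2-D1 was there at 237 CPM, below each of its WB1P fractions. H2-T23 encodes the non-classical heavy chain Qa-1, which is read by inhibitory receptors of NK cells. It was counted at 44.8, 23.6, 36.9 and 55.6 CPM in WB1P and at 15.6, 13.9, 23.002 and 17.7 CPM in WB1P-Myc, a pooled log2 ratio of -1.16 (-1.56 to -0.74). The lowest WB1P fraction was just above the highest of WB1P-Myc. Without WB1P fraction 4 its log2 ratio was -0.81, under 2-fold.

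Among the loading genes, tapasin showed the clearest separation. Tapbp encodes tapasin, which holds the empty heavy chain next to the peptide transporter. It was counted at 67.2, 54.2, 86.7 and 46.6 CPM in WB1P and at 19.1, 21.1, 24.02 and 22.2 CPM in WB1P-Myc. All WB1P fractions were above all those of WB1P-Myc. The pooled log2 ratio was -1.51 (-1.85 to -1.17), 2.85-fold lower. The transporter subunits were sparse. Tap1 was at 9.42 CPM in WB1P and 3.96 CPM in WB1P-Myc, a log2 ratio of -1.25 (-2.10 to -0.36) that was -0.64 without WB1P fraction 2. Tap2 was at 14.4 and 7.34 CPM, a log2 ratio of -0.97 (-1.63 to -0.28). The WB1P fractions ran from 3.00 to 15.3 CPM for Tap1 and from 0 to 16.7 CPM for Tap2, and both ranges overlapped those of WB1P-Myc.

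Psmb8 differed least of the members with a ratio. Psmb8 and Psmb9, the immunoproteasome subunits listed, replace constitutive subunits in the interferon-induced form of the proteasome, which changes the peptides it cuts. Psmb8 was counted at 0, 40.3, 44.3 and 34.5 CPM in WB1P and at 22.7, 29.2, 39.9 and 20.7 CPM in WB1P-Myc. The fractions overlapped, and the log2 ratio was -0.44 (-0.82 to -0.05). Psmb9 was counted at 22.4, 9.73, 9.22 and 9.01 CPM in WB1P, the first from 2 UMIs, and at 3.91, 3.83, 8.18 and 8.08 CPM in WB1P-Myc. The fractions did not overlap, yet the pooled log2 ratio of -0.77 had an interval that included 0 (-1.54 to 0.06). Nlrc5, the class I transactivator, had 0 UMIs in WB1P tumour cells, which allows a level of up to 1.83 CPM, and 8 UMIs (0.93 CPM) in those of WB1P-Myc. In the MiSeq tables it had 2 UMIs in the tumour cells of each model, at 3.21 CPM in WB1P and 1.43 CPM in WB1P-Myc. A difference in Nlrc5 was not detectable at this depth.

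**Figure D1:**
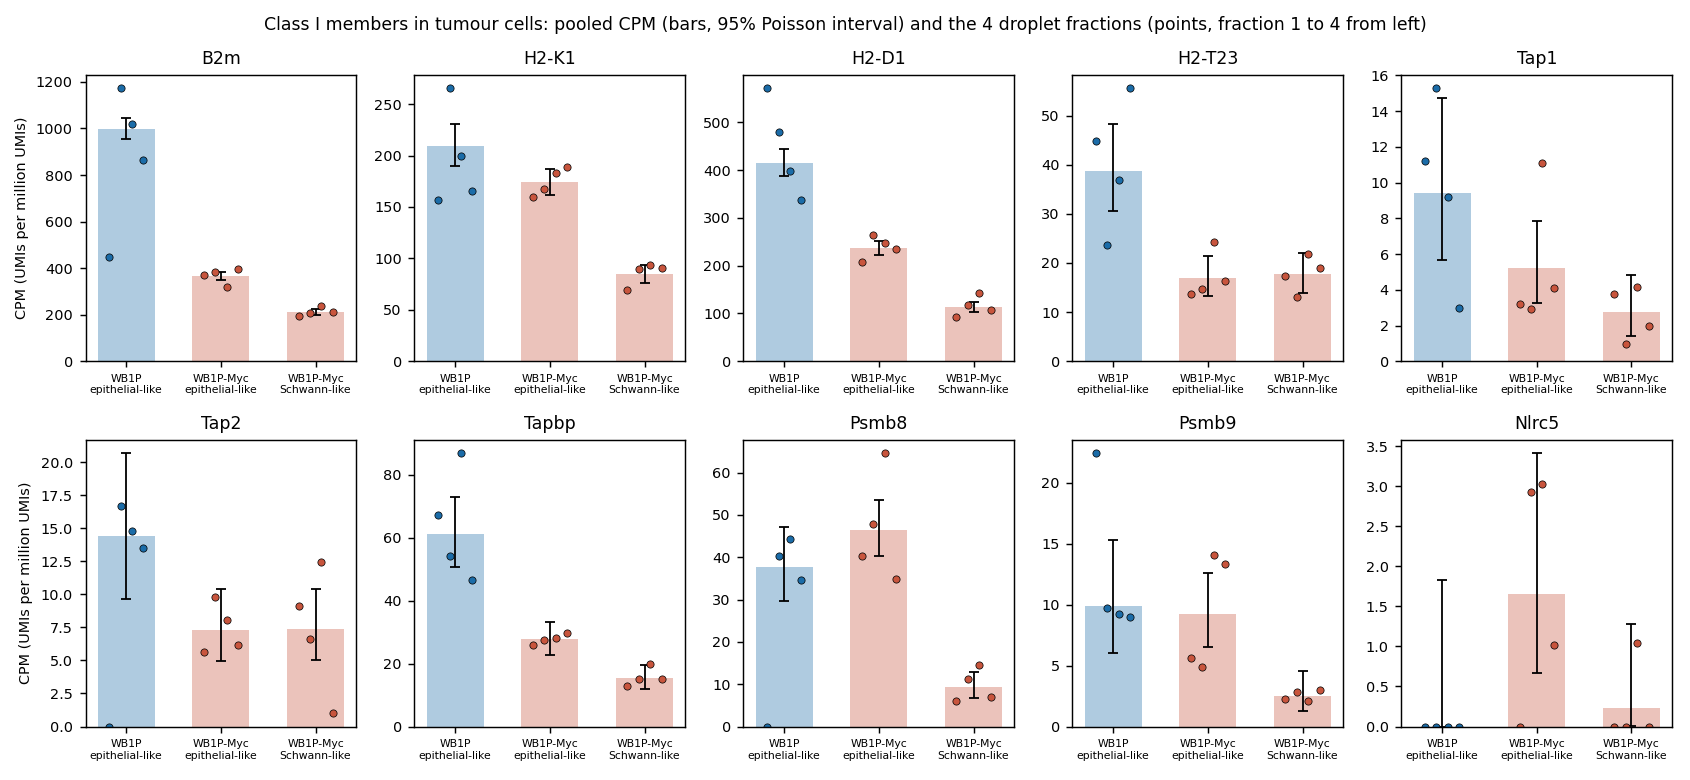
Level of each of the 10 members, in CPM on a linear axis of its own, in WB1P epithelial-like cells (blue) and in epithelial-like and Schwann-like cells of WB1P-Myc (red), with bars for the pooled level, whiskers for the 95% Poisson interval and 1 point per droplet fraction. For B2m every WB1P point lies above every WB1P-Myc point, while for Psmb8 the epithelial-like cells of WB1P-Myc reach the level of WB1P and the Schwann-like cells lie below.

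The size of the difference depended on the unit. WB1P-Myc tumour cells held more UMIs, with a median of 4025.5 per cell against 1895 in WB1P. Counted as UMIs per cell instead of CPM, B2m was at 3.07 in WB1P and 1.43 in WB1P-Myc tumour cells, and H2-K1 was at 0.644 and 0.639. The median log2 ratio of the members was then -0.46, with 1 of 10 at least 2-fold lower. The upper limit of 4000 genes per barcode also mattered. With barcodes above it included, the median log2 ratio was -0.32 and 3 members were at least 2-fold lower. The barcodes over the limit in the WB1P-Myc epithelial-like class numbered 84 and held 44.7% of its UMIs. They had B2m at 593 CPM against 365 CPM in those within the limit, H2-D1 at 642 against 236 CPM, H2-K1 at 364 against 174 CPM, H2-T23 at 41.6 against 16.7 CPM, and Psmb8 at 111 against 46.6 CPM. In WB1P, 38 such barcodes held 43.1% of the UMIs, with B2m at 1002 CPM against 999 CPM within the limit, H2-D1 at 525 against 415 CPM, H2-K1 at 284 against 209.7 CPM and H2-T23 at 58.2 against 38.7 CPM. Among barcodes over the limit, 3 members (B2m, H2-T23 and Tapbp) were lower in WB1P-Myc epithelial-like than in WB1P cells, and the other members were higher, among them Psmb8 (111 against 45.1 CPM) and Tap1 (13.97 against 3.27 CPM). In the Schwann-like class, 47 such barcodes held 17.6% of the UMIs, with B2m at 168 against 209.5 CPM. Whether the barcodes over the limit were large single cells or several cells in 1 droplet was not tested.

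Thinning each cell to 600 UMIs set the depths equal. A B2m UMI was then found in 35.2% of WB1P tumour cells (exact Clopper-Pearson 95% interval 31.5 to 38.9%) and in 15.5% of those of WB1P-Myc (13.8 to 17.3%). With all UMIs the shares were 67.9 and 50.6%. An H2-D1 UMI was found in 21.9% and 8.45% of the thinned tumour cells, and an H2-K1 UMI in 12.5% and 7.002%. Any of the 10 members was found in 54.9% of thinned WB1P and 28.1% of thinned WB1P-Myc tumour cells. In macrophage-like cells of the same libraries, B2m was found in 83.3% and 87.0% of thinned cells.

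**Figure D2:**
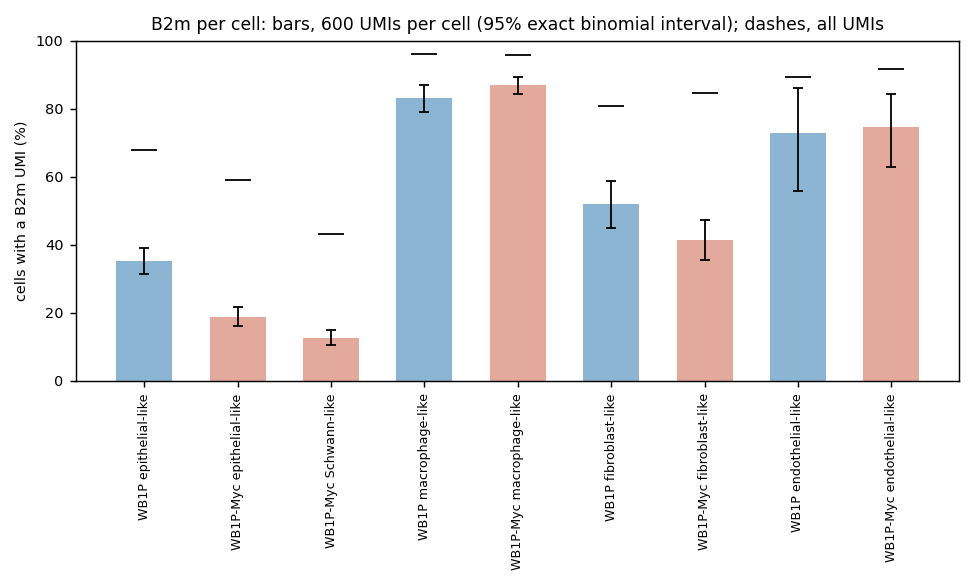
Share of cells with at least 1 B2m UMI (%) by model (blue WB1P, red WB1P-Myc) and cell class, with bars for cells thinned to 600 UMIs, whiskers for the exact binomial 95% interval and dashes for all UMIs. The thinned tumour classes stand at 35.2% in WB1P and at 18.7% and 12.6% in WB1P-Myc, below every stromal class.

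The lower levels in WB1P-Myc were not the same in its epithelial-like and Schwann-like tumour cells. The Schwann-like class, led as a whole by markers such as Sox10 and Mbp, had no counterpart among the WB1P cells. At the finer clustering 551 of its 911 cells fell in a cluster led by the myelin genes Mag and Mbp. Another 354 fell in a cluster whose top genes included cartilage matrix genes, and B2m differed widely between these clusters. B2m was counted at 369, 382, 318 and 397 CPM in the fractions of the WB1P-Myc epithelial-like cells. In the Schwann-like cells it was counted at 196, 207, 238 and 211 CPM. Both ranges lay below the WB1P fractions, and the Schwann-like range was the lower. Against WB1P epithelial-like cells, B2m was 2.72-fold lower in epithelial-like cells of WB1P-Myc (log2 ratio -1.44, -1.54 to -1.35) and 4.72-fold lower in Schwann-like cells. These comparisons share the WB1P pool, and each class level of WB1P-Myc is an average over finer clusters that differed widely, given further on. Over the members the median log2 ratio in epithelial-like cells was -0.86 over 9, or -0.83 with Nlrc5 (7 UMIs against 0) at its lower bound, with 3 of 10 at least 2-fold lower against 16.2% of all genes. In Schwann-like cells it was -1.87 over 9, with 8 of 10 at least 2-fold lower against 13.4% of all genes.

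Within WB1P-Myc, the immunoproteasome subunits had the largest differences among the members with more than 8 UMIs. Psmb8 was counted at 40.3, 47.9, 64.5 and 34.8 CPM in the fractions of the epithelial-like cells, against 6.06, 11.3, 14.5 and 6.98 CPM in the Schwann-like fractions. Every Schwann-like fraction was below every epithelial-like one, with a pooled difference of 4.94-fold. Against WB1P the epithelial-like level was not lower, at a log2 ratio of 0.30 whose interval included 0 (-0.09 to 0.71), while the Schwann-like level lay at -1.999 (-2.58 to -1.43). Psmb9 was at 9.21 CPM in epithelial-like and 2.53 CPM in Schwann-like cells of WB1P-Myc. H2-D1 was at 237 and 113 CPM, and H2-K1 at 174 and 84.6 CPM. H2-T23 (17.0 and 17.7 CPM) and Tap2 (7.32 and 7.36 CPM) were at about the same level in both. Between these classes, 5 of 10 members were at least 2-fold lower in Schwann-like cells against 7.82% of all genes, at a median log2 ratio of -0.98. The 5 were Psmb8, Psmb9, H2-D1, H2-K1 and Nlrc5, the last on 1 UMI against 7, with an interval that included 0 (-8.34 to 0.11).

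**Figure D3:**
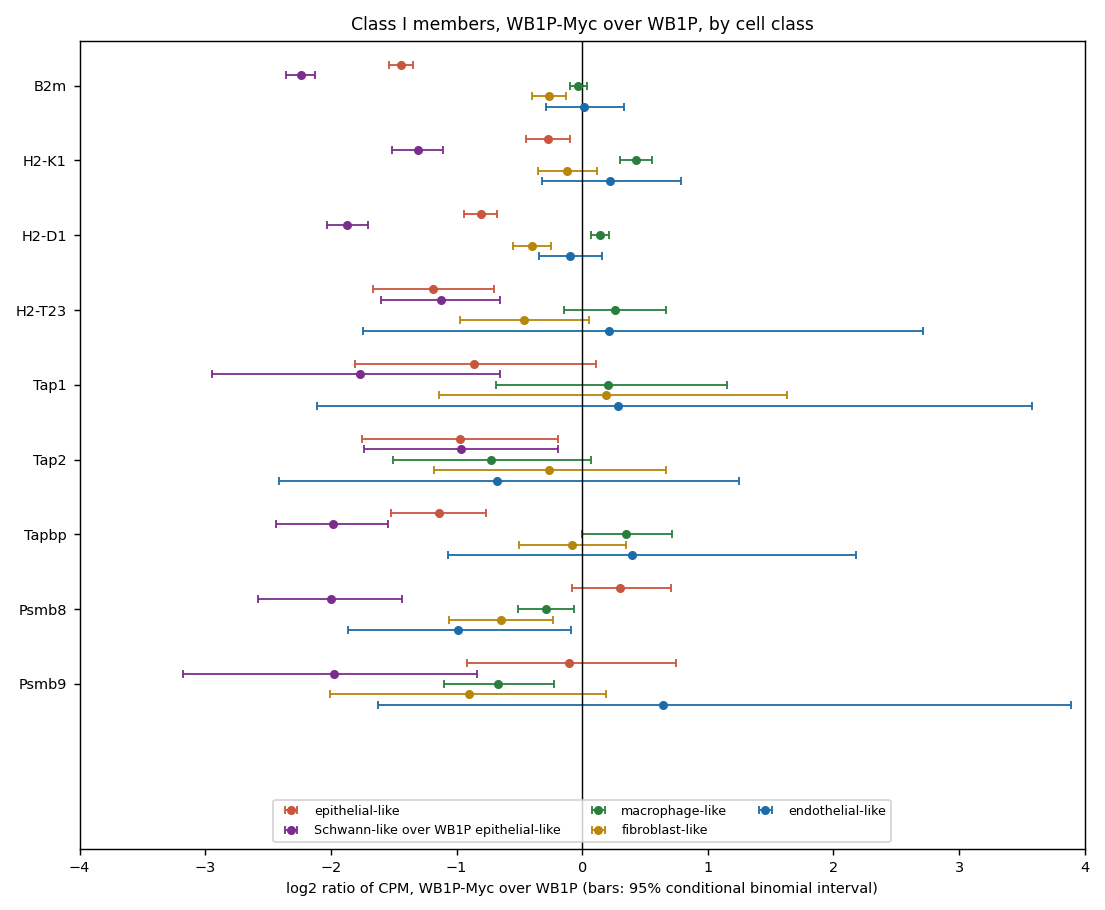
log2 ratio of CPM of WB1P-Myc over WB1P for the 9 members with a ratio, in 5 classes shown by colour, with the 95% conditional binomial interval. The Schwann-like points, set against WB1P epithelial-like cells, reach from -2.24 to -0.97, while those of macrophage-like cells lie on both sides of 0.

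Finer clusters of WB1P-Myc tumour cells spread widely. At a finer clustering, the epithelial-like cells of WB1P stayed in 1 cluster of 656 cells with B2m at 999 CPM, while the tumour cells of WB1P-Myc fell into several. The Schwann-like cells led by the myelin genes Mag and Mbp (563 cells) had B2m at 100.1 CPM, H2-D1 at 64.2 CPM and Psmb8 at 2.7 CPM. A cluster of 472 cells met the count of Schwann markers, with 5 leading, but its top genes included the cartilage matrix genes Hapln1, Acan and Col2a1 and none of those markers, so it is called here by its top genes. It had B2m at 434 CPM and H2-D1 at 205 CPM. The epithelial-like cluster (331 cells) had B2m at 307 CPM, between these, and the highest H2-D1 of the 3 (316 CPM). Its Psmb8 was at 80.6 CPM against 20.7 CPM in the cells with cartilage matrix genes. Its H2-K1, at 227 CPM, was level with the 209.5 CPM of the WB1P cluster. Another 3 clusters had too few leading markers for a name. The largest, of 582 WB1P-Myc cells, had B2m at 207.6 CPM. One of 264 cells, led by Slc38a4 and Dlk1, had B2m at 596 CPM, and one of 225 cells, with Epcam at 628 CPM, had B2m at 92.8 CPM and H2-D1 at 46.4 CPM. Of these clusters of WB1P-Myc, none reached the B2m level of the WB1P tumour cells.

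**Figure D4:**
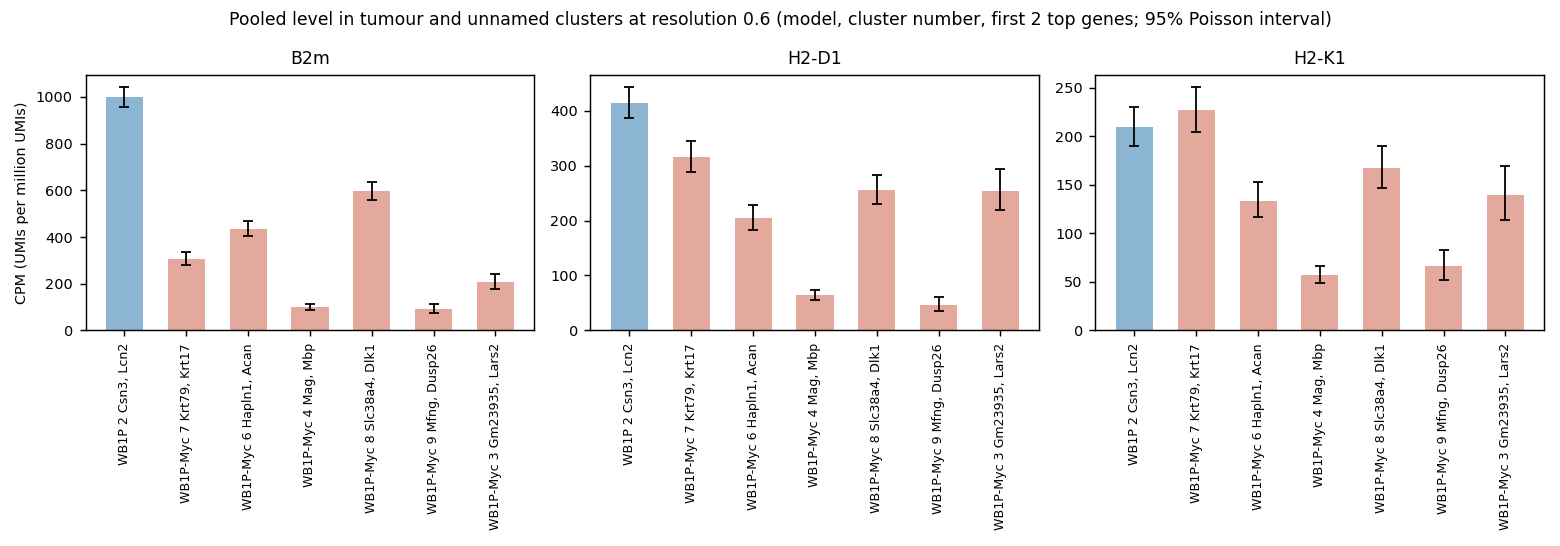
Pooled level of B2m, H2-D1 and H2-K1 (CPM, linear axes from 0) in the tumour and unnamed clusters of the finer clustering, labelled by model, cluster number and first 2 top genes, with 95% Poisson intervals, for WB1P (blue) and WB1P-Myc (red). B2m is at 999 CPM in the WB1P cluster and between 92.8 and 596 CPM in the 6 clusters of WB1P-Myc, and H2-K1 in the epithelial-like cluster of WB1P-Myc (Krt79, Krt17) is level with WB1P.

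In the stroma of the same libraries no member reached a 2-fold difference between the models, and few genes of any kind did. None of the 10 was at least 2-fold lower or higher in macrophage-like, fibroblast-like or endothelial-like cells of WB1P-Myc against WB1P, which 3.1%, 1.95% and 1.79% of all tested genes were in the lower direction and 5.44%, 2.69% and 4.14% in the higher. The median log2 ratio of the members was 0.17 in macrophage-like, -0.27 in fibroblast-like and 0.21 in endothelial-like cells. In the shallower MiSeq tables the macrophage-like median was -0.41 and the fibroblast-like median 0.47, so both turned direction. B2m was at 4039 CPM in WB1P and 3958 CPM in WB1P-Myc macrophage-like cells, 1931 and 1954 CPM in endothelial-like cells, and 1342 and 1119 CPM in fibroblast-like cells. Over fractions 2 to 4, the macrophage-like levels ran from 3679 to 4483 CPM in WB1P, within reach of the 3599 to 4555 CPM of the WB1P-Myc fractions. WB1P fraction 1 held 2 macrophage-like cells. Some members lay apart even so. In macrophage-like cells H2-K1 was at 1044 and 1403 CPM, a log2 ratio of 0.43 (0.30 to 0.56). Psmb8 lay lower in WB1P-Myc in each stromal class, at log2 ratios of -0.29, -0.65 and -0.99. In the MiSeq tables Psmb8 went the other way in fibroblast-like cells, at 119.9 CPM in WB1P and 183 CPM in WB1P-Myc (16 and 22 UMIs). Psmb9 lay lower in macrophage-like (-0.67) and fibroblast-like cells (-0.90, with an interval that included 0). Psmb9 was on the other side of 0 in endothelial-like cells (0.64, on 2 and 9 UMIs). Tap2 lay at -0.72 in macrophage-like cells, with an interval that included 0 (-1.51 to 0.07). The endothelial-like classes held only 37 and 71 cells, in which most members were sparse and 894 genes were tested. The finer clustering set 17 of the 377 WB1P and 77 of the 700 WB1P-Myc macrophage-like cells apart as T or NK-like. Without WB1P fraction 3 the macrophage-like median turned to -0.080. The class II genes, which present peptides taken up from outside, went another way in macrophage-like cells. Cd74, the class II invariant chain, was at 6415 CPM in WB1P and 1389 CPM in WB1P-Myc, and all 6 class II genes listed were at least 2-fold lower.

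As CPM, most class I members lay lower in tumour cells than in stroma in both models, and for B2m the gap was wider in WB1P-Myc. CPM is a share of UMIs, and levels per cell were not compared between tumour and stroma. Median UMIs per cell in WB1P were 1895 in tumour, 1450 in macrophage-like, 2252 in fibroblast-like and 1397 in endothelial-like cells. In WB1P-Myc they were 4025.5, 1493, 2717 and 1949. B2m was 4.04-fold lower in tumour than in macrophage-like cells of WB1P and 13.7-fold lower in WB1P-Myc. Against fibroblast-like cells it was 1.34-fold and 3.88-fold lower, and against endothelial-like cells 1.93-fold and 6.78-fold lower. Against macrophage-like cells, 9 of 10 members were at least 2-fold lower in WB1P (background 13.7%), and 10 of 10 in WB1P-Myc (17.6%). Against fibroblast-like cells the counts were 7 (13%) and 9 (16.7%), and against endothelial-like cells 6 (12.6%) and 10 (23.9%), where Nlrc5 had 1 UMI in endothelial-like cells. Members of any depth enter these counts, while the shares cover genes with at least 50 UMIs over both pools. Nlrc5 was below that limit in each comparison with stroma, and Tap1, Tap2 and Psmb9 were below it in some. The order of the classes by B2m was macrophage-like, endothelial-like, fibroblast-like and tumour in each model, with no overlap of neighbouring counting intervals. H2-D1 had the same order, with 3576, 3053, 1071 and 415 CPM in WB1P and 3950.0, 2853, 813 and 174 CPM in WB1P-Myc, but in WB1P the interval of endothelial-like cells (2629 to 3526) reached that of macrophage-like cells (3433 to 3723). Psmb8 was 10.9-fold lower in tumour than in macrophage-like cells of WB1P and 12.1-fold lower in WB1P-Myc. The WB1P-Myc value averages epithelial-like cells at 46.5 CPM and Schwann-like cells at 9.43 CPM, against 335 CPM in macrophage-like cells.

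**Figure D5:**
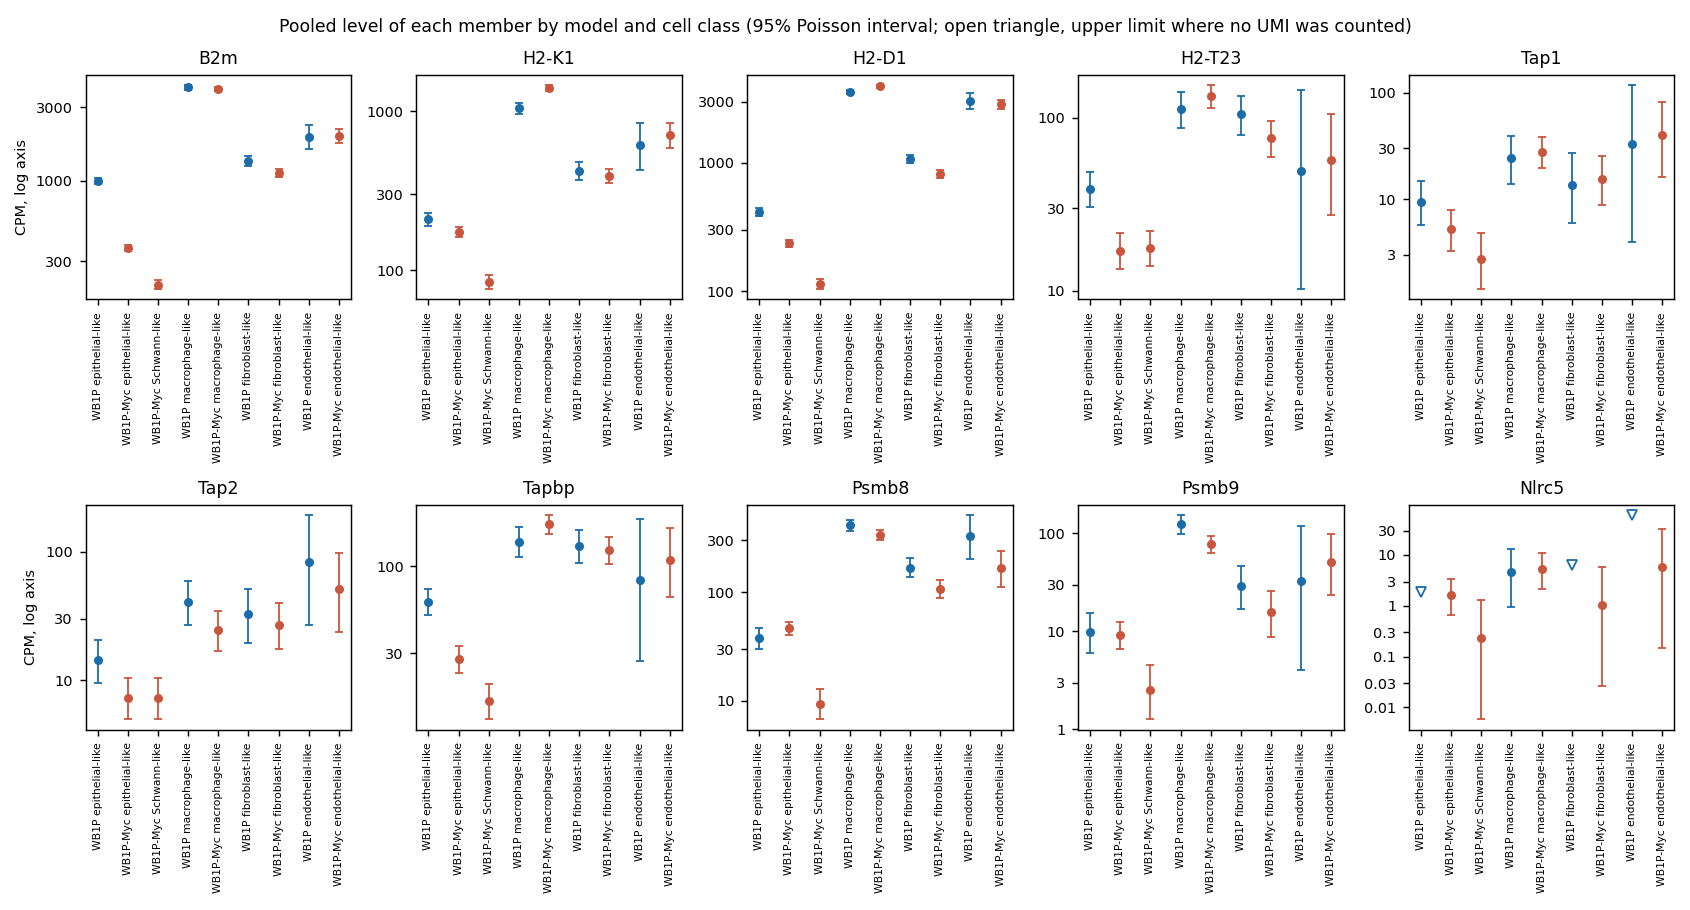
Pooled level of each member (CPM, log axes) in 9 pools of model and cell class, blue for WB1P and red for WB1P-Myc, with 95% Poisson intervals and an open triangle for the upper limit where no UMI was counted. The tumour classes lie below the stromal classes for B2m, H2-K1 and H2-D1 in both models.

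Macrophage RNA in tumour droplets was present at a low and similar level. The 9 macrophage markers summed to 194.4 CPM in WB1P and 210.5 CPM in WB1P-Myc tumour cells, which was 0.791% and 0.835% of their level in macrophage-like cells. Such RNA would carry at most 3.20% of the B2m level of WB1P tumour cells and 11.5% of that of WB1P-Myc, and at most 6.82% and 18.9% of their H2-D1. With it subtracted, the median log2 ratio of the members was -1.22. Over 34 markers of immune cells, 65.3% of WB1P and 58.7% of WB1P-Myc tumour cells had no UMI, the summed levels were 256 CPM (134 to 333 over fractions) and 216 CPM (142 to 279), and 11 and 4 markers were at 0. In tumour cells without any such UMI the median log2 ratio was -1.03.

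Other genes of peptide supply and loading differed in both directions. Of 10 such genes, 3 were at least 2-fold lower in WB1P-Myc tumour cells and 1 was higher, against 12.9% and 17.6% of all tested genes, with a median log2 ratio of -0.61. Psme2, an interferon-induced subunit of the PA28 proteasome activator, was at 377 CPM in WB1P and 160.2 CPM in WB1P-Myc. The trimming peptidase Erap1 lay at a log2 ratio of -1.67 and the tapasin relative Tapbpl at -2.21. Psmb10, the third interferon-induced catalytic subunit, was on the other side of Psmb8 and Psmb9, at 35.2 CPM in WB1P and 102 CPM in WB1P-Myc (log2 ratio 1.53). It was at 158 CPM in epithelial-like and 47.4 CPM in Schwann-like cells of WB1P-Myc. The constitutive subunit Psmb6 was likewise higher (317 and 842 CPM), while Psmb5 (0.25) and Psmb7 (-0.01) had log2 ratios near 0. The chaperones lay between, with Pdia3 at -0.66, Calr at -0.15 and Canx at 0.69.

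Of the regulators listed, 22 were tested, of which 3 were at least 2-fold lower, 2 were higher and 17 were within 2-fold, with a median log2 ratio of -0.35. Both counts are near or below the shares of all tested genes (12.9% lower, 17.6% higher). The lower ones were Ifngr2, a chain of the interferon gamma receptor (73.9 CPM in WB1P and 22.4 CPM in WB1P-Myc), Ifnar1, a chain of the type I interferon receptor (-1.02), and Nfkb1 (-1.24). The higher ones were Suz12, a Polycomb subunit (1.39), and Myc itself (1.25). Irf1, a transcription factor that carries interferon signals to class I promoters, lay at -0.33. The 7 tested interferon response genes had a median log2 ratio of -0.12 between the models. Only Gbp3 was at least 2-fold lower and none was higher, against 12.9% and 17.6% of all tested genes. Gbp3 lay at -1.49, Gbp2 at -0.90 and Isg15 at -0.63. Those above 0, Iigp1 (0.89), Cxcl10 (0.33) and Ifit1 (0.10), had intervals that included 0. Under the limit of 50 UMIs, Usp18 lay at -2.84 (-3.83 to -1.90). The other listed genes under that limit lay below 0 with intervals that included 0. In the epithelial-like cells alone the directions were mixed, with Iigp1 at 1.69, Cxcl10 at 1.08 and Ifit1 at 0.90 but Gbp3 at -1.33 (-2.06 to -0.60) and Gbp2 at -0.39. Between Schwann-like and epithelial-like cells of WB1P-Myc they lay lower in the former, where 5 of 6 tested genes were at least 2-fold lower (7.82% of all genes), at a median of -2.48. There Isg15, a ubiquitin-like interferon-induced protein, was at 40.2 CPM in epithelial-like and 5.06 CPM in Schwann-like cells. Of the other class I and class I-like genes, 5 of 17 were tested. None was at least 2-fold lower in WB1P-Myc tumour cells, and 3 were higher, against 17.6% of all tested genes. These were Mr1, which presents microbial metabolites (3.58, on 1 WB1P UMI), Fcgrt, the neonatal Fc receptor (1.58), and H2-Q7 (1.05, on 6 WB1P UMIs and with an interval of -0.16 to 2.56). In the epithelial-like cells alone, Fcgrt lay at 0.33 (-0.59 to 1.33). Of the genes on this list that were not tested, Cd1d1 lay at -1.62 (-2.73 to -0.47). The others with a ratio lay on both sides of 0, with intervals that included 0. Of a list of 8 immune receptors and ligands, among them Cd8a, Klrd1, Ifng and Cd274, 4 were found by symbol. Of these, 0 reached 50 UMIs over both tumour pools. Lilrb4a was not found by that symbol, while Lilrb4 was among the top genes of macrophage-like cells in the MiSeq run.

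Across 9 pools of model and cell class, the genes whose pattern was most like that of the members were given by the correlation with the members' mean centred log2 level (CPM plus 10), as a description over pools that share libraries. Of 7934 genes, Rap1b (r = 0.989), a small GTPase, and Tmsb4x (0.986), an actin-binding peptide, ranked first. H2-Q4 (0.963) was also among the 10 highest. Each member was set in the same way against the other 9. H2-D1 (0.986), H2-K1 (0.985), B2m (0.973) and Psmb8 (0.959) had the highest values, and Tap2 (0.779) and Nlrc5 (0.593) the lowest, the latter with a handful of UMIs per pool.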

How the data were processed

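Drop-seq libraries of WB1P and WB1P-Myc tumours were analysed. The deposited tables hold UMI counts per gene and barcode, made by the authors from reads mapped to mm10 (per the submitters' processing notes, which also name Scanpy), with 1000 barcodes per table and no normalisation. Shallower MiSeq tables served as an alternative, and the merged table was not used. Each model is 1 suspension in 4 fractions, which are technical, so values carry no test. Barcodes with 450 to 4000 genes and under 20% mitochondrial UMIs were kept. No doublet caller was run beside this limit. Cells were clustered without 36 class I and loading genes (Scanpy 1.11.5, Leiden 0.10.2, 30 components, 20 neighbours, resolution 0.3, finer 0.6) and named from 12 marker lists where at least 3 markers led. Median UMIs per cell were 1895 and 4025.5 in tumour cells. CPM was computed over pooled cells with Poisson intervals, and ratios with binomial intervals (scipy 1.17.1). Intervals and limits at a count of 0 (3 counts for folds) cover counting error only. Ratios over all genes used those with at least 50 UMIs, a limit not set on the counts of members. All 10 members were named, and other genes came from fixed lists. Members and lists were chosen with earlier results of these data known. The ratio code was tested on simulated data. Alternatives covered filters, scaling (edgeR 4.0.16, DESeq2 1.42.0 size factors), clustering, weighting, depth and fractions left out.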

Additional observations from a re-analysis of the deposited data

Results flagged for a closer look

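Psmb9 in WB1P tumour cells of fraction 1 stood at 22.4 CPM, far from the other 3 fractions (9.01 to 9.73 CPM). It rests on 2 UMIs among the 89269 UMIs of that fraction's tumour cells, and it was 1 of 19 groups of 4 fractions examined, where chance sets 1 in about 20 apart.

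The 718 WB1P-Myc cells of the cluster that took no name had B2m at 219.7 CPM (204 UMIs) and H2-D1 at 217.6 CPM. These cells entered no comparison at the clustering used. With clustering on all genes or on the 2000 most variable genes, WB1P-Myc tumour cells numbered 2448 and 2416 in place of 1728. The whole cluster had a median of 1173 UMIs per cell, and its WB1P-Myc B2m level lay near the 212 CPM of the Schwann-like cells of that model, while its H2-D1 lay nearer the 237 CPM of the epithelial-like cells than the 113 CPM of the Schwann-like cells.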

How the results depend on the processing

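Each model was 1 suspension, so no setting turns these values into a test, and the fractions bound technical spread alone. Depth limits Nlrc5, Tap1, Tap2 and Psmb9, and the endothelial-like classes. No paired analysis was possible because no test was run and the fraction numbers only name fractions. Tumour genotype, suspension and depth cannot be told apart.

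The median log2 ratio of the members in tumour cells stayed below 0 in all 18 alternatives. From -1.16 it was -0.83 with WB1P-Myc epithelial-like cells only, -1.87 with Schwann-like cells only, -0.32 with no maximum of genes per barcode, -1.64 in the MiSeq run and -0.46 as UMIs per cell, an alternative chosen after seeing the data. Members at least 2-fold lower then numbered 3, 8, 3, 9 and 1 in place of 5. In the MiSeq run 491 of the 616 WB1P-Myc tumour cells were Schwann-like, against 911 of 1728 in the HiSeq run. The MiSeq value therefore comes with another mix of tumour classes. No alternative joined epithelial-like cells only with no maximum of genes per barcode, so the sign of the median there is not given. Among barcodes over that limit, most members were higher in WB1P-Myc epithelial-like than in WB1P cells. Leaving out 1 fraction gave -1.30 to -0.84 and 4 to 6 members. The value nearest 0 was that without WB1P fraction 2. B2m ranged from -2.24 to -1.10 over the alternatives, H2-D1 from -1.87 to -0.56, H2-K1 from -1.31 to -0.01 and Tapbp from -1.99 to -0.81. Psmb8 ranged from -1.999 to 0.30 and was below 0 in 15 of 18.

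In the MiSeq run the median was -0.41 in macrophage-like cells (0.17 in the HiSeq run), 0.47 in fibroblast-like cells (-0.27), and -0.78 and -2.67 for tumour over fibroblast-like cells in WB1P and WB1P-Myc (-1.18 and -1.95). The MiSeq WB1P-Myc tumour pool also held another mix of tumour classes, as given above. The cause of these shifts was not tested. Leaving out 1 fraction gave -0.080 to 0.20, -0.46 to -0.24 and 0.02 to 0.21 in macrophage-like, fibroblast-like and endothelial-like cells between the models, the -0.080 being the median without WB1P fraction 3. For tumour over macrophage-like, fibroblast-like and endothelial-like cells it gave -2.10 to -1.98, -1.28 to -1.12 and -1.84 to -1.34 in WB1P, and -3.35 to -3.21, -2.07 to -1.84 and -3.05 to -2.60 in WB1P-Myc. With all genes of at least 1 UMI, 29.96% of genes were at least 2-fold lower in place of 12.9%. A count of 0 was set to 3 counts for folds, and the WB1P pool held fewer UMIs. Sparse genes counted in WB1P-Myc alone can therefore be called lower there, and how many were was not counted. The shares of tumour cells with a B2m UMI were 67.9% and 50.6% with all UMIs and 35.2% and 15.5% at 600 UMIs per cell. TMM and DESeq2 size factors shifted the tumour ratios between the models by 0.07 to 0.12, and those of tumour over endothelial-like cells by up to 0.45 and those over macrophage-like cells by at most 0.20 the other way.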
